A study of Mus musculus with 6 samples.

Results

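Genes of catecholamine metabolism and adrenoceptors were examined in brain tissue of male mice with high or low sexual motivation. The set was 8 genes picked by name from the deposited gene table: Th, the monoamine oxidase genes Maoa and Maob, and the receptor genes Adra1b, Adra1d, Adra2a, Adra2c and Adrb1. All 8 were present among 13170 listed genes. Poly(A) RNA libraries had been made from 3 samples of a high motivation group and 3 samples of a low motivation group, all labelled C57 with no age, allele or treatment. The labels do not say how animals and libraries correspond, so p-values measure the spread between these libraries, which may be technical. The tissue is named in several ways: the series title gives the medial amygdala, the extraction protocol gives the abbreviation PrL, and the tissue label gives brain.

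Tyrosine hydroxylase, the product of Th, catalyses the rate-limiting step of catecholamine synthesis, from which dopamine and then noradrenaline are made. Noradrenaline acts through adrenoceptors of the alpha-1, alpha-2 and beta classes, which couple to Gq, Gi and Gs proteins. Monoamine oxidases A and B, flavoenzymes of the outer mitochondrial membrane, degrade the amines. The cell bodies of noradrenergic neurons lie in the brainstem and those of most dopaminergic neurons in the midbrain, and their axons reach the amygdala and the prefrontal cortex. Catecholamines are known to act on arousal and on sexual motivation in rodents.

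Of the 8 genes, Th had the largest ratio between the groups (2.55, high over low). Its mean level of 0.732 FPKM was close to the lowest mean of all listed genes, 0.5 FPKM. The lowest Th value among high libraries exceeded the highest among low libraries. FPKM are fragments scaled by transcript length and by sequencing depth, so that levels of different genes can be set side by side. Maob was separated in the other direction, with every high library lower. The other 6 genes overlapped between the groups. Among all listed genes, 7.17% were separated upward and 7.59% downward in this way. None of the 8 passed the test over all genes, in which limma called 0% of genes.

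The region before the Th start is shown because Th had the largest ratio between the groups. That of Maoa is shown as the promoter of a degrading enzyme from the same set. Both are RefSeq sequences of GRCm38.p6, read 5′ to 3′ on the strand of the gene. Th is at chr7:142900015-142900245 on the minus strand and Maoa is at chrX:16619448-16619697 on the plus strand. Capitals mark matches on either strand to the cyclic AMP response element TGACGTCA, the AP-1 motif TGANTCA, the GC box GGGCGG and the TATA box TATAAA.
Th: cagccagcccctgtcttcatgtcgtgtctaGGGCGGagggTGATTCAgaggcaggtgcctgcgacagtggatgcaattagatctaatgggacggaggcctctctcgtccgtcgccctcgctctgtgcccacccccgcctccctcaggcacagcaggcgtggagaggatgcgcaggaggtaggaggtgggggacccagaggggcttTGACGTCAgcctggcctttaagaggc
Maoa: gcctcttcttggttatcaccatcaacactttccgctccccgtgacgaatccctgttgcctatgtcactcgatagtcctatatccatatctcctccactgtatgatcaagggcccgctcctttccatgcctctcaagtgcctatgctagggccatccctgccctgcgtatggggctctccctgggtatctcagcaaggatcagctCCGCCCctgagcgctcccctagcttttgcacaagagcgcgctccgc

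The 250 bases before the RefSeq start were searched in the 6 of 8 genes with an entry. For Th the last 19 of them, which lie in a GENCODE exon, are not shown. The searched stretches of Adra2a and Adra2c also overlap GENCODE exons of these genes. In Th the cyclic AMP response element began 45 bases before the RefSeq start and the AP-1 match 210 bases before it. No capitals overlap each other. Th was the 1 gene of the 6 with TGACGTCA, a sequence found in 1.55% of 32851 promoters of the same length. The AP-1 motif was in 6.75% of those promoters and, of the 6 genes, in Th and in 1 of the 2 starts of Adra1b. The GC box, in 32.7% of promoters, was in 5 of the 6 genes, and TATAAA, in 12.4%, was in Adra2a alone. A match describes the letters and does not show that a factor binds there.

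By the GENCODE annotation of GRCm38, Th spans chromosome 7 from 142892752 to 142931128, which includes the Th stretch shown above. Maoa (16619698 to 16687818, plus strand) and Maob (16709282 to 16817366, minus strand) lie tail to tail on chromosome X, 21463 bases apart. Adra2a and Adrb1 lie on chromosome 19, Adra2c on chromosome 5, Adra1b on chromosome 11 and Adra1d on chromosome 2. The longest transcripts of Adra2a, Adra2c and Adrb1 have 1 exon, against 12 for Th and 15 for each oxidase gene. Adra1d alone shares exon bases with another annotated gene, the antisense gene Gm14285, so its reads are uncertain where counting did not use strand.

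Averaged over the 6 libraries, the levels per length ran from Maob at 9.45 ± 1.59 FPKM (SD) through Adra2a (8.62 ± 1.2), Maoa (8.05 ± 1.05), Adra2c (7.76 ± 1.13) and Adrb1 (6.26 ± 0.915) to Adra1b (2.56 ± 0.426), Adra1d (2.24 ± 0.645) and Th (0.732 ± 0.418). The ranges of neighbours in this order overlapped, except between Adrb1 and Adra1b and between Adra1d and Th. Maob exceeded Adra2a in 4 of 6 libraries, Adra2a exceeded Maoa in 3, and Maoa exceeded Adra2c in 3, so the order of the upper 4 was not settled. Adra2c exceeded Adrb1 in all 6 although their ranges overlapped. The alpha-2 and beta-1 receptor genes thus stood above both alpha-1 receptor genes in every library. Th lay at percentile 4.48 of all listed genes by mean FPKM, close to the lowest mean of the table, 0.5 FPKM, while Maob lay at percentile 62.6.

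Th had 1.07, 0.69 and 1.4 FPKM in the high libraries, against 0.494, 0.403 and 0.342 FPKM in the low libraries. The groups did not overlap: the lowest high library, number 2, lay above the highest low library. The means were 1.05 ± 0.354 and 0.413 ± 0.0765 FPKM (SD, n = 3 each), a ratio of 2.55. The difference in log2(FPKM + 1), a scale that compresses differences at low levels, was 0.52 (SE 0.138, 95% interval 0.207 to 0.842). Its limma p was 0.00514 unadjusted, rank 125 among all listed genes, and 0.535 after Benjamini-Hochberg adjustment. Because the mean of Th was below the filter of 1 FPKM, these values come from the fit to all listed genes. An exact permutation test of the group means gave p = 0.1 (2-sided), the smallest value that 3 against 3 allows. With a pseudocount of 0.1 FPKM the log2 difference of Th was 1.13 (SE 0.281) with an adjusted p of 0.505. The authors' deposited table gives Th a log2 fold change of 1.35 and a p-value of 0.0378, from a test that the deposited sources do not state.

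Within the high group the highest Th value was 2.02 times the lowest. High library 3, with the highest Th, also had the highest summed level of 9 listed hypothalamic genes, a list added after the data were seen. That sum was 18.1, 24.6 and 46.3 FPKM in the high libraries, against 22.2, 24.1 and 15.4 FPKM in the low libraries, so the groups overlapped. It includes Oxt, the oxytocin gene, at 1.57, 1.86 and 5.06 FPKM in the high libraries, against 0.679, 0.835 and 0.137 FPKM in the low libraries. It also includes Avp, the vasopressin gene, at 3.4, 3.28 and 15.8 FPKM in the high libraries, against 3.41, 3.11 and 1.02 FPKM in the low libraries. Oxt and Avp had the largest log2 differences of the 9 genes (1.22 and 1.04). Of the 9 genes, 6 were higher and 3 lower in the high group. The lower ones were Gal, Pomc and Nkx2-1 (log2 differences −0.18, −0.18 and −0.04). Hcrt, Pmch and Kiss1 were not analysed here. High library 1, second for Th, had the lowest hypothalamic sum of its group. Leaving out high library 3 gave Th a log2 difference of 0.41 (limma adjusted p = 0.613). Leaving out high library 2 gave 0.66 (limma adjusted p = 0.121). The part of hypothalamic RNA in the Th difference was not tested.

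Of 19 other markers of catecholamine neurons 5 were listed, 3 higher and 2 lower, and limma called 0 of them. The groups were separated in 1 of the 5, Aldh1a1, which is described with the breakdown genes. Among all listed genes 7.17% were separated upward. Ddc, which encodes the decarboxylase that acts after tyrosine hydroxylase, had 2.64, 2.68 and 4.06 FPKM in the high libraries, against 3.58, 3.84 and 1.88 FPKM in the low libraries. Slc18a2, the vesicular monoamine transporter gene, had 1.27, 0.761 and 1.69 FPKM in the high libraries, against 1.98, 1.81 and 1.66 FPKM in the low libraries. Ddc overlapped widely, and Slc18a2 leaned the other way from Th with overlapping groups (log2 difference −0.35, SE 0.154). The transcription factor gene Nr4a2 (7.45 ± 3.62 and 8.66 ± 2.35 FPKM) and the receptor kinase gene Ret (1.62 ± 0.592 and 1.51 ± 0.163 FPKM, high and low group, SD, n = 3 each) overlapped too. Dbh, Slc6a2, Slc6a3, Pitx3 and Phox2a, which define noradrenergic or dopaminergic neurons, and the serotonin neuron markers Tph2, Slc6a4 and Fev were not analysed here. In bulk tissue, more cells of a type and more RNA per cell cannot be told apart.

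**Figure D1:**
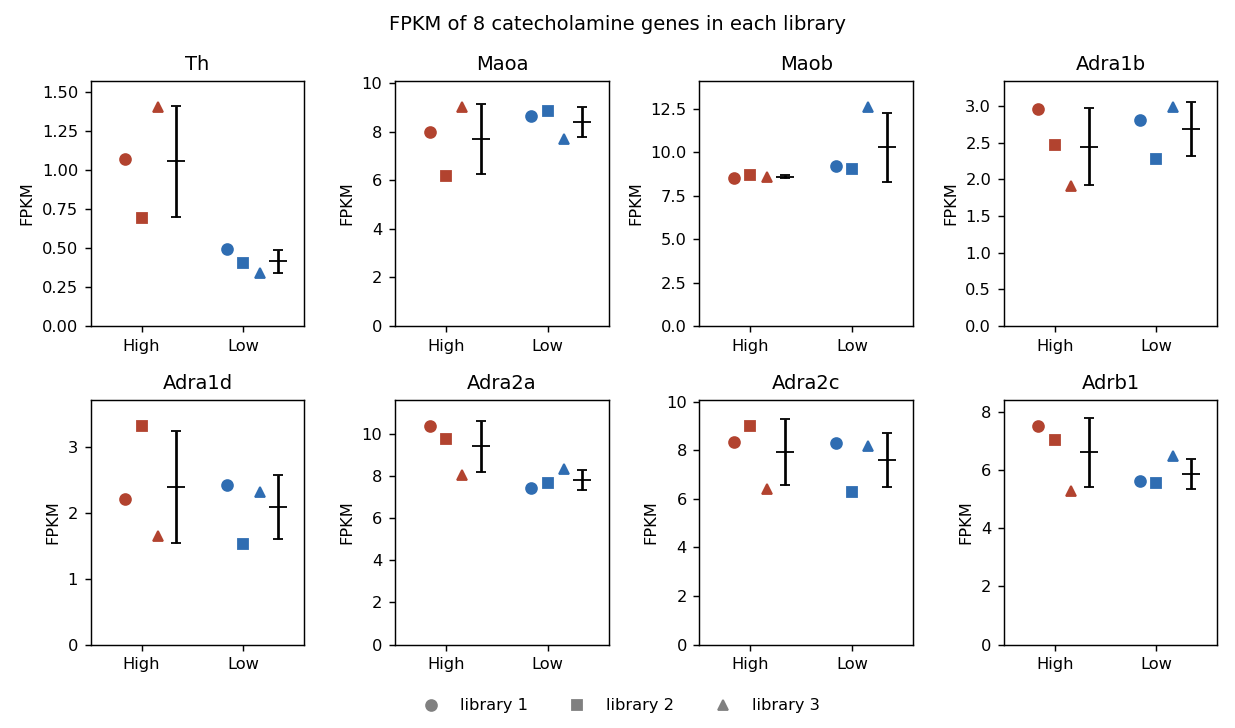
FPKM (y axis, from 0) of the 8 genes in the 3 high libraries (red, left) and the 3 low libraries (blue, right). Marker shapes give the library number, and black bars give the group mean ± SD. Th was separated upward (0.69 to 1.4 against 0.342 to 0.494 FPKM), Maob was separated downward with low library 3 far above the rest, and the other 6 genes overlapped.

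Monoamine oxidase B, the product of Maob, oxidises phenylethylamine and dopamine and is found in astrocytes and serotonergic neurons. Maob had 8.54, 8.68 and 8.57 FPKM in the high libraries, against 9.21, 9.04 and 12.6 FPKM in the low libraries. The groups did not overlap, but low libraries 1 and 2 lay only just above the high libraries and low library 3 stood apart. The means were 8.6 ± 0.072 and 10.3 ± 2.03 FPKM (SD, n = 3 each), with a log2 difference of −0.22 (SE 0.117, 95% interval −0.491 to 0.0485; limma adjusted p = 0.613, exact permutation p = 0.1). Without low library 3 the log2 difference was −0.08, and without low libraries 1 and 3 it was −0.07 (adjusted p = 0.981).

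Low library 3 also carried the most choroid plexus RNA. The summed level of 18 choroid plexus genes was 92.7, 137 and 59.3 FPKM in the high libraries, against 1480, 104 and 4630 FPKM in the low libraries. All 18 were lower in the high group. The sum of 10 listed ependymal and motile cilia genes was 13.1 to 15.4 FPKM in the high group, against 25.0 to 47.9 FPKM in the low group, again with low library 3 highest. Astrocyte genes showed no shift of that kind, with a sum over 15 genes of 881 to 1070 FPKM in the high group, against 812 to 939 FPKM in the low group. The part of choroid plexus or ependymal RNA in the Maob values was not tested.

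Monoamine oxidase A prefers serotonin and noradrenaline. Maoa had 7.97, 6.16 and 9 FPKM in the high libraries, against 8.63, 8.84 and 7.71 FPKM in the low libraries. High library 2 was the lowest of all and high library 3 the highest, so the low group lay within the range of the high group. The log2 difference was −0.12 (SE 0.122, 95% interval −0.403 to 0.162; limma adjusted p = 0.788), and it was 0.014 without high library 2. The ratio of Maoa to Maob was 0.933, 0.71 and 1.05 in the high libraries, against 0.937, 0.977 and 0.609 in the low libraries. High library 2 and low library 3 thus had the least Maoa per Maob, the first through low Maoa and the second through high Maob.

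**Figure D2:**
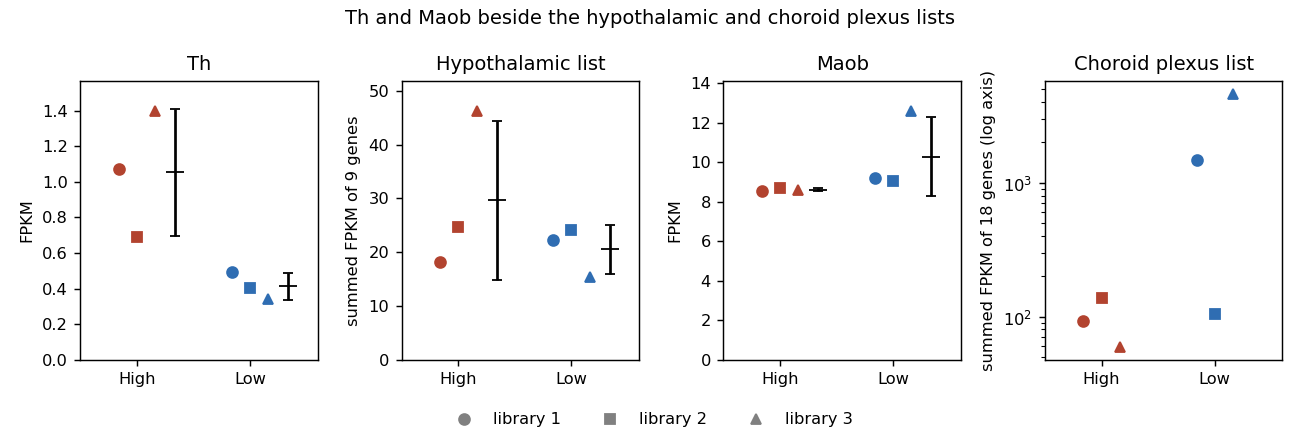
FPKM of Th and Maob and summed FPKM of 9 hypothalamic and 18 choroid plexus genes (log axis for the last) in the high libraries (red, left) and low libraries (blue, right). Black bars, not drawn in the choroid plexus panel, are mean ± SD, and marker shapes give the library number. High library 3 was highest for Th and for the hypothalamic sum (46.3), and low library 3 was highest for Maob and for the choroid plexus sum (4630).

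Adra2a encodes the alpha-2A receptor, which serves as an autoreceptor on noradrenergic terminals and as a postsynaptic receptor in the prefrontal cortex. It had 10.4, 9.79 and 8.07 FPKM in the high libraries, against 7.45, 7.67 and 8.35 FPKM in the low libraries. High libraries 1 and 2 lay above every low library, while high library 3 lay below low library 3. The means were 9.43 ± 1.21 and 7.82 ± 0.47 FPKM (SD, n = 3 each). The log2 difference was 0.24 (SE 0.0966, 95% interval 0.0127 to 0.458), with an unadjusted limma p of 0.0407, an adjusted p of 0.582 and an exact permutation p of 0.2. The difference stayed positive under all 17 alternatives, from 0.17 to 0.33, with adjusted p from 0.279 to 0.979.

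Adrb1, the gene of the beta-1 receptor, had 7.54, 7.05 and 5.28 FPKM in the high libraries, against 5.62, 5.56 and 6.49 FPKM in the low libraries. High libraries 1 and 2 were the highest and high library 3 the lowest of all 6. The log2 difference was 0.14 (SE 0.122, 95% interval −0.146 to 0.418; limma adjusted p = 0.756). Leaving out high library 1 brought it to 0.05, and leaving out high library 3 brought it to 0.27.

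Adra2c, the gene of the alpha-2C receptor, had 8.34, 9.01 and 6.39 FPKM in the high libraries, against 8.32, 6.3 and 8.17 FPKM in the low libraries. The groups covered nearly the same range, each with 1 library near the bottom. The log2 difference was 0.05 (SE 0.137, 95% interval −0.267 to 0.366; limma adjusted p = 0.929), and it was −0.065 without low library 2.

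The alpha-1 receptor genes were lower in level and as mixed. Adra1b had 2.96, 2.46 and 1.91 FPKM in the high libraries, against 2.81, 2.27 and 2.98 FPKM in the low libraries, a log2 difference of −0.10 (SE 0.132; limma adjusted p = 0.832). Adra1d had 2.21, 3.32 and 1.64 FPKM in the high libraries, against 2.42, 1.53 and 2.32 FPKM in the low libraries, a log2 difference of 0.12 (SE 0.192; limma adjusted p = 0.868). Both overlapped, and the sign of each changed when single libraries were left out: Adra1b without high library 3 (0.012), and Adra1d without high library 2 (−0.074) or low library 2 (−0.021).

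All 5 receptor genes were lowest within the high group in high library 3, where Th and Maoa were highest. Within the low group, 4 of the 5 were lowest in low library 2, the exception being Adra2a. The share of all genes that were lowest in these libraries was not counted. As a log2 ratio to the mean of each gene over the 6 libraries, the median of the 5 was 0.21, 0.18 and −0.28 in the high libraries, against 0.10, −0.18 and 0.05 in the low libraries. Over the 12026 genes with a mean of at least 1 FPKM the same median lay between −0.0079 and 0.005 in every library. The transcripts of the 5 receptors had a GC content of 54.5% to 65.5%, above the median of 50.1% over listed genes. Among 3238 genes at least as GC-rich as the lowest of them, the median was 0.02, 0.06 and −0.01 in the high libraries, against −0.02, −0.08 and 0.02 in the low libraries. High library 3 and low library 2 were the lowest of their groups in both sets. The part of GC content in the receptor values was not tested beyond the trend removal that follows. With a trend on GC content and transcript length removed, the log2 difference was 0.21 for Adra2a, 0.091 for Adrb1, 0.061 for Adra1d, 0.01 for Adra2c and −0.13 for Adra1b. The same removal brought Maoa to −0.0051, Maob to −0.19 and Th to 0.49.

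The cortical excitatory neuron list, 9 listed genes with Slc17a7 and Tbr1 among them, was low in the same libraries. Its sum was 258, 342 and 196 FPKM in the high libraries, against 268, 240 and 308 FPKM in the low libraries, lowest in high library 3 and in low library 2 within their groups. Of its 9 genes 1 was higher and 8 were lower in the high group. The part of cortical RNA in the receptor values was not tested. Subpallial amygdala genes, such as Lhx6 and Dlx1, summed to 34.2 to 43.0 FPKM over 8 listed genes in the high group, against 32.5 to 38.2 FPKM in the low group. Of the 8, 5 were higher and 3 lower, and limma called 0. The groups were separated upward for Otp, a transcription factor gene of the medial amygdala and hypothalamus (2.74 ± 0.886 and 1.4 ± 0.251 FPKM), as for 7.17% of all listed genes. They were separated downward for Esr1, the oestrogen receptor alpha gene (0.652 ± 0.185 and 1.06 ± 0.116 FPKM, high and low group, SD, n = 3 each), as for 7.59%. Neuronal genes such as Snap25 summed to 1020 to 1150 FPKM in the high group, against 999 to 1050 FPKM in the low group. Lhx6 and Dlx1 are also expressed by cortical interneurons, so this sum does not by itself show amygdalar tissue, and Cyp19a1, Sim1 and Lhx5 were not analysed here.

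**Figure D3:**
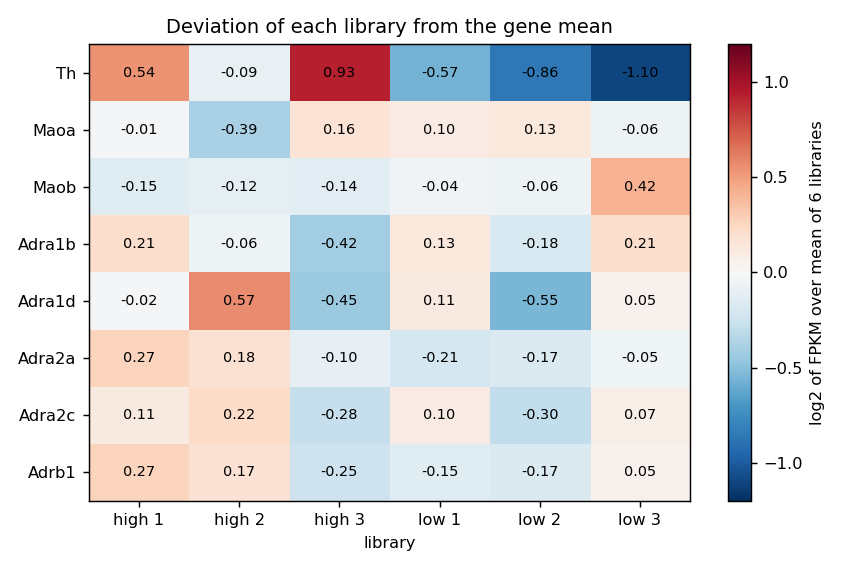
Log2 of FPKM over the mean of the 6 libraries for each of the 8 genes (rows) in each library (columns, high on the left, low on the right). Values are printed in the cells. The 5 receptor genes were below their mean in high library 3 (−0.10 to −0.45), where Th was at 0.93, and Th was below its mean in all 3 low libraries (−0.57 to −1.10).

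Over all genes, limma called 0 of 12026 genes with a mean of at least 1 FPKM (0%) and 0 of 13170 without the filter (0%) at an adjusted p under 0.05. In the filtered set 1009 genes had an unadjusted limma p under 0.05. Of the 8 catecholamine genes, Th and Adra2a had an unadjusted limma p under 0.05, both higher. Among all listed genes, 4.08% had such a p and were higher, and 8.39% had such a p in either direction. The groups did not overlap for Th upward, where 7.17% of all listed genes were separated upward, and for Maob downward, where 7.59% were separated downward. The median log2 difference of the 8 genes was 0.083, with 5 higher and 3 lower, against 0 over the tested genes, of which 6025 were higher and 6001 lower.

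The wider pathway was counted over lists by role. Of 10 catecholamine synthesis genes 6 were present, 5 higher and 1 lower, and limma called 0 of them. Beside Th, Pcbd1, which recycles the tetrahydrobiopterin cofactor of tyrosine hydroxylase, had 8.06, 9.02 and 10.6 FPKM in the high libraries, against 7.32, 7.27 and 6.03 FPKM in the low libraries. Its groups did not overlap (log2 difference 0.37, SE 0.11, limma adjusted p = 0.553), where 7.17% of all listed genes were separated upward. The cofactor genes Pts (4.36 ± 0.237 and 4.01 ± 0.116 FPKM), Spr (5.0 ± 0.968 and 5.0 ± 0.61 FPKM) and Qdpr (31.7 ± 2.61 and 30.0 ± 1.74 FPKM, high and low group, SD, n = 3 each) overlapped. Dbh, Pnmt, Gch1 and Gchfr were not analysed here.

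Among transporters, 2 of 6 were present and both were lower. Slc29a4, a low-affinity plasma membrane monoamine transporter, had 4.92, 10.6 and 6.99 FPKM in the high libraries, against 14.1, 9.52 and 19.8 FPKM in the low libraries. The groups overlapped, and the 2 highest values were those of low libraries 1 and 3, which were also the 2 highest in choroid plexus genes (log2 difference −0.86, SE 0.287, limma adjusted p = 0.564). The part of choroid plexus RNA in the Slc29a4 values was not tested.

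All 6 genes of the breakdown list were present, 3 higher and 3 lower, and limma called 0 of them. Sult1a1, a phenol sulfotransferase gene, had 10.6, 12.7 and 11.4 FPKM in the high libraries, against 8.18, 9.45 and 8.68 FPKM in the low libraries (log2 difference 0.36, SE 0.0847, limma adjusted p = 0.505). Aldh1a1, an aldehyde dehydrogenase gene of dopamine neurons and of retinoic acid synthesis, had 6.39, 5.18 and 7.13 FPKM in the high libraries, against 3.05, 4.45 and 4.93 FPKM in the low libraries (log2 difference 0.50, SE 0.157, limma adjusted p = 0.553). Both were separated upward, as were 7.17% of all listed genes, and neither passed after adjustment. Meningeal genes were higher in the high group as well, in 12 of 12 listed genes, with a sum of 1170, 217 and 631 FPKM in the high libraries, against 69.9, 367 and 84.8 FPKM in the low libraries. Endothelial and mural genes were higher in 11 of 15, with a sum of 121 to 183 FPKM in the high group, against 111 to 127 FPKM in the low group. The part of either tissue in these values was not tested. Aldh2 (15.8 ± 0.776 and 17.0 ± 3.15 FPKM) and Akr1b3 (3.84 ± 0.184 and 3.66 ± 0.242 FPKM, high and low group) overlapped.

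Of 8 adrenoceptor genes examined 6 were present, and Adra1a and Adra2b were not analysed here. Beside the 5 receptor genes of the set, Adrb3 stood at 0.942 ± 0.271 FPKM in the high group and 1.07 ± 0.147 FPKM in the low group, with overlap. Of 30 listed genes for G proteins, adenylyl cyclases, protein kinase A, arrestins and receptor kinases, 16 were higher and 14 lower, with a median log2 difference of 0.024 and 0 called by limma. The 4 with the smallest unadjusted p were the adenylyl cyclase genes Adcy3 (10.8 ± 0.639 and 9.4 ± 0.453 FPKM) and Adcy2 (27.8 ± 2.11 and 24.3 ± 1.38 FPKM), the Gs alpha gene Gnas (8.41 ± 1.4 and 6.63 ± 0.655 FPKM) and the arrestin gene Arrb1 (42.1 ± 1.61 and 37.9 ± 1.28 FPKM, high and low group, SD, n = 3 each).

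**Figure D4:**
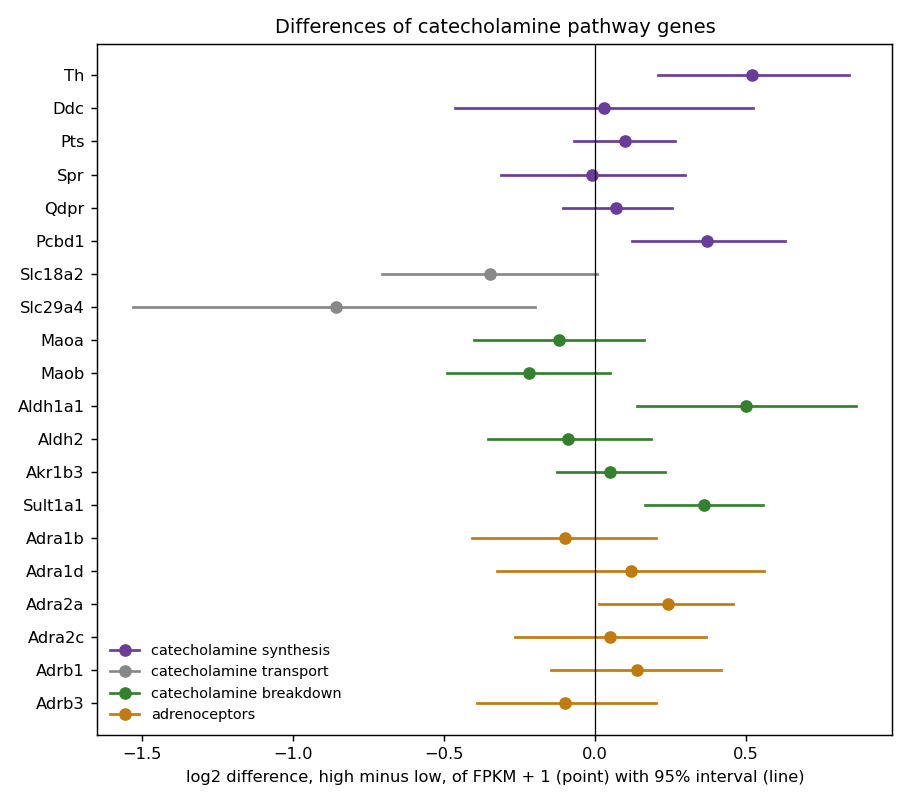
Log2 difference, high minus low, of FPKM + 1 (points) with 95% intervals from limma (lines) for the listed genes of catecholamine synthesis, transport, breakdown and the adrenoceptors. Intervals are not adjusted for the number of genes. Those of Th, Pcbd1, Aldh1a1, Sult1a1 and Adra2a lay above 0 and that of Slc29a4 lay below 0, while none of these genes passed after adjustment. An interval that leaves out 0 matches an unadjusted limma p under 0.05, which 8.39% of all listed genes had in either direction.

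Th had the widest range of the 8 genes over the libraries, 4.09-fold. The 3 genes with the most similar profile, measured as the root mean square difference of log2 ratios to the own mean over the 6 libraries, were Lbhd2 (0.308), Col11a1 (0.347) and Nxph4 (0.368). Lbhd2 had 7.53, 4.01 and 8.31 FPKM in the high libraries, against 3.92, 4.1 and 3.07 FPKM in the low libraries, and so overlapped between the groups through high library 2. All share the same 6 libraries and their composition.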

How the data were processed

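Poly(A) RNA of 6 mouse brain samples was sequenced by the authors, 3 per group. The authors deposited FPKM per gene and library. The tools named by the submitters' processing notes are fastp, HISAT2 and StringTie, on GRCm38. The log2 fold change and p-value columns are the authors', and the deposited sources do not state their test. FPKM carry no counts, so absolute depth is unknown. Relative depth, estimated from the most common ratio among 1428 genes under 1.5 FPKM, was 0.901 to 1.16, deepest in high library 2.

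Genes averaging at least 1 FPKM were kept, values were put on the log2(FPKM + 1) scale, and limma 3.58.1 under R 4.3.3 compared the groups (variance trend, 2-sided, Benjamini-Hochberg at 0.05 over all genes). Genes below the filter take values from the same fit to all 13170 genes. Single values had exact permutation tests (scipy 1.17.1). The fit was tested on simulated data in which genes varied independently, so shared differences in tissue composition were not covered. GC content is that of the longest GENCODE transcript, for 13055 genes. The genes named were the 8 of the set, all present members of the synthesis, transport, breakdown and receptor lists, 4 signalling genes by smallest p, and the 3 genes most like the most variable member. Marker genes named as examples were chosen after their values were seen. Some genes of these lists are not reported here. The genes and lists were chosen with earlier results of these data known.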

Additional observations from a re-analysis of the deposited data

How the results depend on the processing

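Under 17 alternatives limma called 0 genes each time, with 361 to 1567 at an unadjusted p under 0.05 against 1009 as reported, and none of the 8 genes passed. Th, Adra2a, Adrb1 and Maob kept their direction under each alternative in which they had a value. The log2 difference of Th was 1.13 with a pseudocount of 0.1 FPKM, which is another scale. Under the other alternatives, on the scale of log2(FPKM + 1), it ran from 0.41 to 0.66. With low libraries 1 and 3 left out, Adra1b was 0.064, Adra1d 0.39 and Adra2c 0.28, where the 1 remaining low library is assumed to vary like the high libraries. With single libraries left out, the log2 difference ranged from −0.23 to 0.014 for Maoa, −0.21 to 0.012 for Adra1b, −0.074 to 0.28 for Adra1d and −0.065 to 0.18 for Adra2c. The cause was not tested. Th, Adra1b and Adra1d have no value with only genes of at least 5 FPKM on average. Replicate numbers are shared by the groups. Same-numbered libraries did not deviate together (r = −0.0939, −0.206 and −0.156), while r of the other pairs ran from −0.0294 to 0.183. These correlations cannot show whether same-numbered libraries share a batch. With the replicate number as a block, 743 genes had an unadjusted p under 0.05 and Th had an adjusted p of 0.75. With block and GC trend removal it was 0.739, and 777 genes had an unadjusted p under 0.05.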
